A study of Mus musculus with 2 samples.

Results

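Vascular smooth muscle cells of the injured mouse tendon were picked from single-cell RNA counts by the genes they carried. A barcode that passed the filters counted as such a cell with at least 5 UMIs of Myh11 (smooth muscle myosin heavy chain), where a UMI is a tag that marks a single captured RNA molecule. It also needed at least 20 UMIs of Acta2 (smooth muscle actin) per 10000, 0 UMIs of the pericyte channel genes Kcnj8 and Abcc9, at most 1 UMI of Pecam1 and Ptprc together, and less than 2% of UMIs from Col1a1, Col1a2 and Col3a1. These criteria found 108 of 20036 cells, 35 in the WT library and 73 in the F592A library. Both groups were mice 12 weeks old, studied 14 days after tendon surgery, with 3 mice pooled for each genotype. The WT library came from TrkA WT mice, titled as the control. The F592A library came from mice with TrkA F592A, a kinase changed so that a bulky inhibitor can block it, and its title names an inhibitor, INMPP1. Whether the WT mice were also given the inhibitor was not stated in the labels read here, so effects of the allele, of the inhibitor and of blocked TrkA cannot be told apart. With 1 library per genotype, differences between them have no replicate check, and no test was run. Every interval is a 95% interval for counting error only, and cells of a single pool cannot show how mice differ.

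Smooth muscle cells wrap arteries, arterioles and larger veins and set vessel width by contracting. They contract when calcium and calmodulin activate the kinase that phosphorylates myosin light chain, and nitric oxide relaxes them through cyclic GMP. Serum response factor with its coactivator myocardin drives many of their contractile genes, and injured vessels can shift towards a synthetic state with less contractile protein and more matrix and cytokines. Pericytes, their neighbours on capillaries, share Notch3, Pdgfrb and some contractile genes with them.

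The cells carried the RNA that their name calls for, but were not free of pericyte-associated RNA. Tagln (transgelin, an actin-binding protein of smooth muscle) was detected in 35 of 35 WT and 73 of 73 F592A cells, at 11253 and 9926 CPM, which is UMIs summed over the cells of a library and given as CPM, relative to all UMIs of those cells. Pericytes were taken as cells with at least 2 UMIs of Kcnj8 and Abcc9 and with Pdgfrb, under the same limits on Pecam1, Ptprc and the collagens. No limit on Myh11 or Acta2 was set for pericytes, so this gate can include contractile cells that carry Kcnj8 or Abcc9. Tagln was at 2418 and 2103 CPM in pericytes. Notch3, a receptor of mural cells, was at 463 and 603 CPM, level with 477 and 605 CPM in pericytes, and at 4.35 and 5.04 CPM in Acta2-positive cells rich in collagen (the myofibroblast gate). Notch3 therefore marked mural cells as a whole and did not separate smooth muscle from pericytes. Rgs5, a regulator of G protein signalling best known from pericytes, was detected in 33 of 35 WT and 63 of 73 F592A cells, although the rule removed every cell with Kcnj8 or Abcc9. Of 10 pericyte markers, 8 were detected, and their summed level was 11421 CPM in WT and 7366 CPM in F592A smooth muscle cells, against 13961 and 13871 CPM in pericytes. Rgs5 alone gave most of each of these sums, so they do not describe the pericyte markers as a whole. Kcnj8 and Abcc9 were at 0 by the rule. A cell that carries few UMIs can lack them by sampling, so the gate may hold some pericytes, and their part in the results below was not tested.

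Other cell types left little RNA in the gate. The 10 endothelial markers summed to 122 and 45.4 CPM, and the 10 leukocyte markers to 254 and 90.8 CPM. The macrophage gene Lyz2 gave most of the latter, at 153 and 50.2 CPM against 12936 and 9577 CPM in leukocytes. Schwann markers summed to 19.2 and 22.2 CPM. The 10 fibroblast markers summed to 3476 CPM in WT and 1731 CPM in F592A. Of the sum of Dcn, a fibroblast proteoglycan, 60% in WT came from a single cell. The gate held 417126 WT and 1035327 F592A UMIs, with a median of 10581 (range 3386 to 23788) and 14048 (4424 to 51327) UMIs per cell. The libraries had 14868 and 10677 barcodes and shared 764 of them, and barcodes found in both were left out, which removed 0 smooth muscle cells. Scrublet, a doublet caller, marked 342 WT and 220 F592A barcodes (2.95% and 2.54%) and 0 of the 108 cells.

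The gate cut through filled ranges at its pericyte edge in both libraries and at its Myh11 edge in WT. With a limit of 3, 5 or 10 Myh11 UMIs it held 41, 35 or 28 WT cells and 73, 73 or 71 F592A cells. The lowest Myh11 count inside was 5 in WT and 8 in F592A, and the highest count outside among cells that met every other criterion was 4 and 0. The Acta2 level nearest to the limit was 35.3 and 24.6 per 10000 inside and 19.3 and 17.9 outside. The collagen share nearest to the limit was 1.71% and 1.21% inside and 3.48% and 2.05% outside. At the pericyte edge 92 WT and 125 F592A contractile cells failed only because they had Kcnj8 or Abcc9 UMIs, 22 and 29 of them with exactly 1. In WT, 49 cells failed on Myh11 alone, against 5 in F592A. These values chose the cells and are given as a description.

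Smooth muscle cells made up a larger part of the F592A library. In WT they were 0.305% of 11485 cells (exact binomial interval 0.212 to 0.424). In F592A they were 0.854% of 8551 (interval 0.670 to 1.07), which is 2.80 times the WT share (Katz interval 1.87 to 4.19). The intervals of the shares did not overlap. The contractile cells with Kcnj8 or Abcc9, which differ from them by that criterion alone, were 0.801% and 1.46%, a ratio of 1.82 (interval 1.40 to 2.39). Pericytes were 3.97% and 5.47% (ratio 1.38, interval 1.22 to 1.56) and endothelial cells 5.45% and 7.89% (ratio 1.45, interval 1.304 to 1.61). Myofibroblasts went the other way, with 3.49% and 1.67% (ratio 0.479, interval 0.397 to 0.579). Among all contractile cells, those without Kcnj8 and Abcc9 were 27.6% in WT (35 of 127, interval 20.0 to 36.2) and 36.9% in F592A (73 of 198, interval 30.1 to 44.0), and these intervals overlap. Restricting the gate to cells with less than 50 UMIs of Rgs5 per 10000 left 12 WT and 49 F592A cells and a ratio of 5.48 (interval 2.92 to 10.3). This limit was chosen after seeing the data. It removed 23 of 35 WT and 24 of 73 F592A cells, so the higher ratio restates the lower Rgs5 of the F592A cells. The criteria other than Myh11 were met by 84 WT and 78 F592A cells, so the share ratio depends on the Myh11 limit. A share depends on the piece dissected and on which cells survived the enzymes, and more cells of a type and a better yield of it cannot be told apart.

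**Figure D1:**
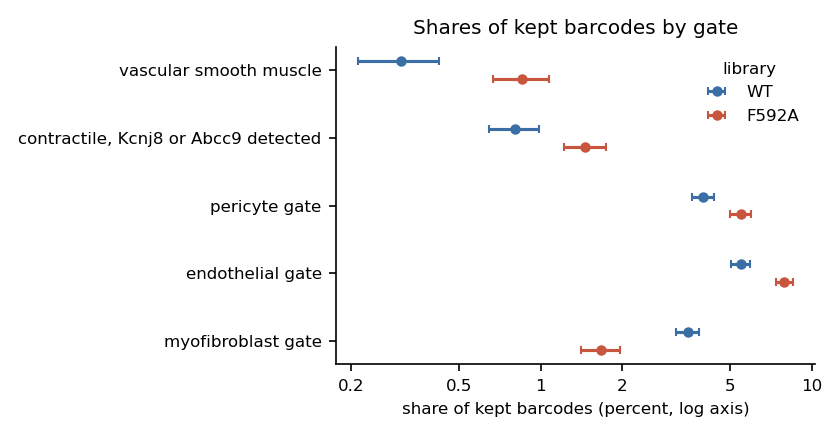
Share of kept barcodes (percent, log axis) in the gates for vessel and contractile cells, for the WT (blue) and F592A (red) library, with exact binomial 95% intervals. Smooth muscle cells were 0.305% and 0.854%, and the myofibroblast gate was smaller in F592A.

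Contractile genes set the smooth muscle cells apart from pericytes in both libraries. Of 35 contractile genes compared, 21 were at least 2-fold above pericytes in both libraries and 0 were at least 2-fold below, beside 112 of 1441 genes above (7.77%) and 83 below (5.76%) among all genes that reached 100 CPM in the higher gate of each library. The median log2 ratio of the list to pericytes was 1.44 in WT and 1.34 in F592A, against -0.01 and -0.08 over all genes. The whole contractile list summed to 68449 and 65067 CPM in smooth muscle cells, 21217 and 21745 CPM in pericytes and 19996 and 19987 CPM in myofibroblasts. Since Myh11 and Acta2 chose the cells, and genes of the same program follow them, this is a description of the gate. Calponin (Cnn1), which restrains actomyosin, was at 266 and 320 CPM against 41.0 and 54.1 CPM in pericytes. Leiomodin (Lmod1), which nucleates smooth muscle actin filaments, was at 333 and 379 CPM against 56.3 and 87.5 CPM. The muscle intermediate filament gene Des did not follow, with 345 and 335 CPM against 538 and 336 CPM.

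**Figure D2:**
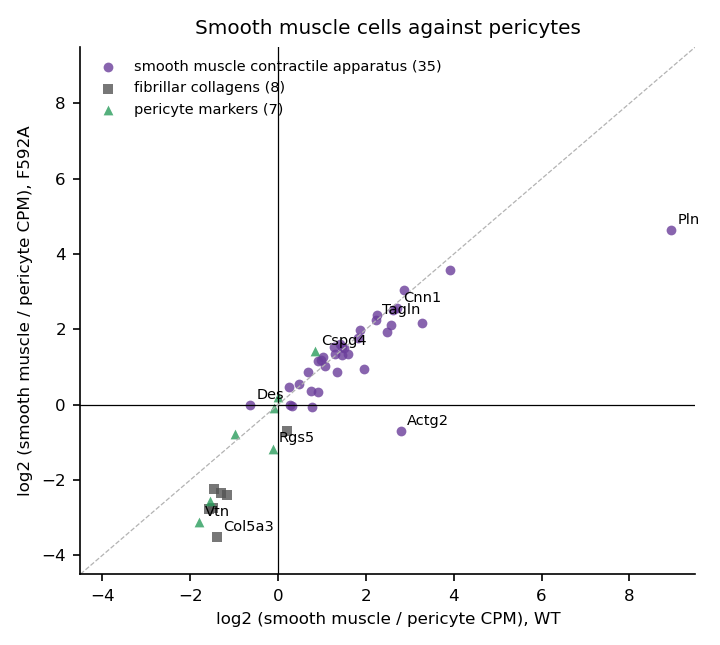
Log2 ratio of summed CPM in smooth muscle cells to pericytes in WT (x axis) and F592A (y axis) for contractile genes, fibrillar collagens and pericyte markers, without the genes used by the gates. Most contractile genes sit above 0 on both axes, the collagens sit mostly below, and Actg2 is high in WT alone.

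The genes farthest above pericytes, by the smaller of the ratios in the 2 libraries, led with Pln. Phospholamban (Pln), the inhibitor of the calcium pump of the sarcoplasmic reticulum, was at 192 and 283 CPM. Pericytes had 2 UMIs of it in WT and 68 in F592A, so the WT log2 ratio was 8.95 (interval 7.05 to 12.0) and the F592A log2 ratio 4.64 (interval 4.25 to 5.04). With every cell thinned to 5000 UMIs, Pln was found in 11 of 34 WT and 33 of 72 F592A smooth muscle cells, against 0.242% and 2.97% of pericytes and 0.0489% and 0.246% of leukocytes. Next came Sorbs2, an adaptor of actin filaments (log2 3.92 and 3.58), the F-box gene Fbxl22 (4.83 and 3.56), the calcineurin regulator Rcan2 (3.60 and 3.45) and the potassium channel subunit Kcnab1 (4.24 and 3.33). Olfml2a, Nrip2, Trp53i11, the intermediate filament gene Synm and the transcription factor Tcf15 completed the 10, with the smaller of the ratios between 2.78 for Tcf15 and 3.20 for Olfml2a. The myocardin gene itself (Myocd) was 81.5 and 92.7 CPM, with log2 ratios to pericytes of 3.43 and 3.01. On the other side, genes below 1/4 of their level in another gate, pericytes included, were left out of naming. This removed 36 genes that were at least 2-fold below pericytes in both libraries, so the genes farthest below are not named. The lowest of the remaining genes were Pcdh19, a protocadherin (-2.48 and -1.94), and Cks2, a subunit of cell cycle kinases (-1.92 and -2.72). Arhgdib, Vtn, Sema6d, Ednrb, Tmem176a, Slc12a2, Plat and Cxcl1 followed. Among them Ednrb, the endothelin receptor type B, was at 83.9 and 163 CPM against 438 and 564 CPM in pericytes.

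Promoters of contractile genes are shown here because serum response factor binds the CArG box, and the contractile list is the one that defines these cells. In the promoter table of RefSeq (GRCm38.p6, 250 bases before to 50 after each start), 34 of the 41 contractile genes had an entry and 5 of these (14.7%) held the box, against 488 of 27025 entries (1.81%). A match on either strand is also a match on the other, and it is a description, not a site shown to be bound. The 5 stretches follow, with the box in capitals.
Cnn2 (chr10:79988519-79988578, plus strand, box from 56 bases before the start): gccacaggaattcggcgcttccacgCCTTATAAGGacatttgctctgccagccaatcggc
Ldb3 (chr14:34588682-34588741, minus strand, box from 35 or 109 bases before its 2 starts): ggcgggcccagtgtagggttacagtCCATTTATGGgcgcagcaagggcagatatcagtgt
Myl6 (chr10:128493025-128493084, minus strand, box from 50 bases before the start): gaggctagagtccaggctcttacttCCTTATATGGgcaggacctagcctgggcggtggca
Myl9 (chr2:156775278-156775337, plus strand, box from 161 bases before the start): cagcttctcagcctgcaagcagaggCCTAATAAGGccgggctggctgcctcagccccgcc
Vcl (chr14:20929148-20929205, plus strand, box from 227 bases before the start): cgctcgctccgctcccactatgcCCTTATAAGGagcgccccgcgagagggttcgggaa

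These genes differed in their ratios between the libraries. Myl9 and Myl6, the regulatory and essential light chains of smooth muscle myosin, were at 2877 and 2554 CPM (log2 ratio F592A to WT -0.17) and 4562 and 4260 CPM (-0.10). Cnn2, a calponin, was at 307 and 213 CPM (-0.52, interval -0.84 to -0.20). Vcl (vinculin, which ties actin to adhesion sites) was at 561 and 343 CPM (-0.71, interval -0.95 to -0.47).

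Between the libraries the contractile genes as a group lay close together. Of 40 measured members, with at least 100 UMIs over both libraries, 4 were higher in F592A by 1.5-fold or more and 3 were lower by as much, beside 10.5% and 16.9% of 1967 measured genes. Their median log2 ratio was 0.16 against -0.11 over all measured genes, and it was 0.24 for the same genes in pericytes. Higher in F592A were the actin crosslinker Flna (825 and 1467 CPM, 0.83), smoothelin (Smtn, 86.3 and 155 CPM, 0.84), Synm (0.68) and the integrin chain Itga8 (67.1 and 183 CPM, 1.44, with 36% of its WT UMIs in a single cell). Lower were Actg2, Vcl and Acta2. Acta2, which the rule used, ranged from 35.3 to 318 per 10000 over WT cells (median 144) and from 24.6 to 260.2 over F592A cells (median 82.0). Myh11, also used by the rule, ranged from 2.69 to 92.9 (median 17.95) and from 6.57 to 93.2 (median 24.8). Tagln ranged from 35.2 to 206 (median 111) and from 9.37 to 267 (median 86.5). The ranges of all 3 genes overlapped over most of their length.

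Actg2, the enteric smooth muscle actin, had the lowest ratio of the 20 genes named by size of difference. The gene lies at chr6:83512905-83536265 on the minus strand (GENCODE M21, GRCm38). It was detected in 21 of 35 WT cells and 20 of 73 F592A cells. Its level was 966 CPM (874 to 1065) and 93.7 CPM (76.0 to 114), and the log2 ratio was -3.37 (-3.70 to -3.04). Over cells its level ran from 0 to 77.9 per 10000 in WT (median 2.43) and from 0 to 18.3 in F592A (median 0), so the cells overlapped and most F592A cells had none. A single WT cell held 35% of the UMIs, and without the highest cell of each library the ratio was -3.12. With cells thinned to 5000 UMIs, Actg2 had a UMI in 55.9% (37.9 to 72.8) of the WT and 23.6% (14.4 to 35.1) of the F592A cells, against 0.880% and 0.431% of leukocytes. Pericytes had 139 and 152 CPM (log2 ratio 0.12), and contractile cells with Kcnj8 or Abcc9 had a ratio of -0.59. Thinned to 2000 UMIs the smooth muscle ratio was -2.45, and among cells low in Rgs5 it was -4.18.

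**Figure D3:**
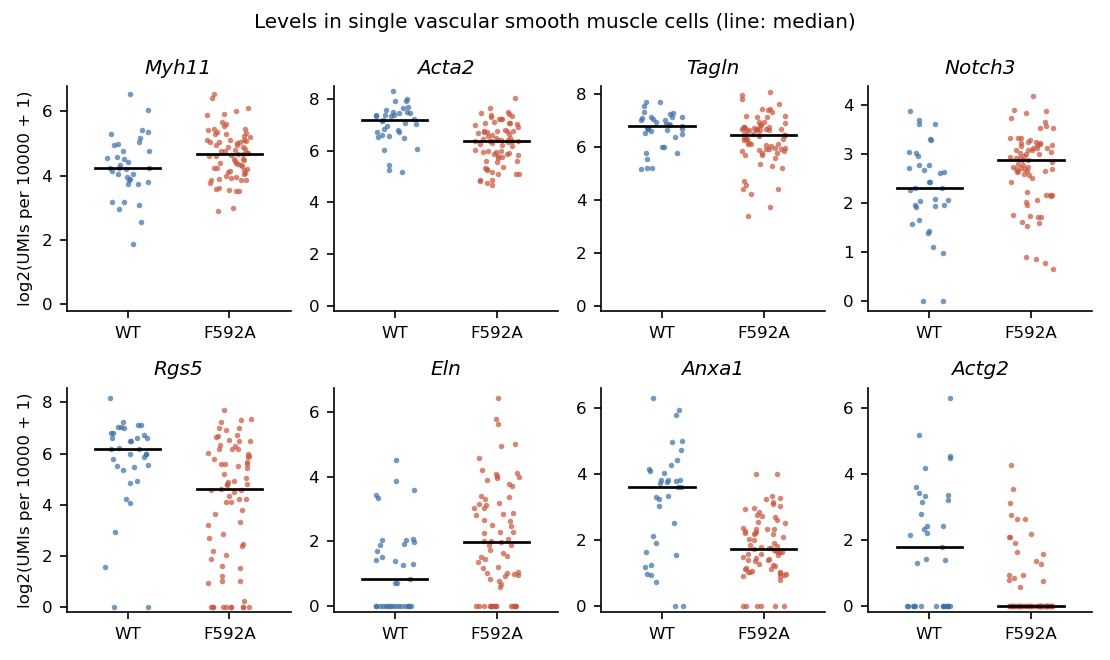
Level of 8 genes in each smooth muscle cell as log2 of UMIs per 10000 plus 1, for 35 WT and 73 F592A cells, with the median as a line. Myh11 and Acta2, which chose the cells, and Tagln are present in all cells of both libraries. Rgs5, Anxa1 and Actg2 have lower medians and Eln a higher median in F592A.

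Over all 1967 measured genes, 50 (2.54%) had F592A levels 2-fold or more above WT and 85 (4.32%) lay as far below, given a level of 20 CPM or more in the higher library. TMM factors, which moved the median of all genes from -0.11 to 0.05, gave 85 higher and 49 lower, and median-of-ratios factors (median 0.00) gave 73 and 53. The balance of higher against lower genes thus turned with the scaling, and 21 of the counted genes lay below 1/4 of their level in another gate and were left out of naming.

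The genes named as higher in F592A joined stress, signalling and matrix genes. Elastin (Eln), the core protein of elastic fibres, lies at chr5:134702593-134747323 on the minus strand. Its level was 326 CPM (274 to 386) and 988 CPM (928 to 1051), and the F592A level was 3.03 times that of WT (log2 interval 1.34 to 1.87). Elastin RNA was detected in 20 of 35 and 57 of 73 cells, from 0 to 22.1 per 10000 in WT (median 0.800) and from 0 to 86.1 in F592A (median 2.93). With cells thinned to 5000 UMIs the shares were 38.2% and 61.1%, against 3.77% and 3.82% in leukocytes. Its ratio was 1.47 in pericytes and 1.58 in contractile cells with Kcnj8 or Abcc9, so elastin was higher in F592A in each mural gate. The pericyte gate and that contractile gate can share cells, so their ratios are not separate observations.

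Ndrg1, a gene induced by stress and low oxygen, had 8 and 95 UMIs, in 4 of 35 and 44 of 73 cells, and a log2 ratio of 2.26 (interval 1.22 to 3.51). In WT 50% of its UMIs were in a single cell, and without the highest cell of each library the ratio was 3.14. Tgm2, the tissue transglutaminase that crosslinks matrix proteins, had 10 and 100 UMIs (2.01, interval 1.07 to 3.11), and its pericyte ratio was -0.05. Hdac5, a histone deacetylase that restrains MEF2 factors, was at 43.2 and 138 CPM (1.68). Rasd1, a small GTPase induced by glucocorticoids, was at 153 CPM (interval 118 to 196) and 468 CPM (interval 428 to 512), detected in 16 of 35 and 62 of 73 cells (1.61, interval 1.23 to 2.01). Adgrl1, a latrophilin receptor (1.63), Net1, an exchange factor for RhoA (1.57), and Cd200, a surface ligand that restrains myeloid cells (1.52), rested on 12, 18 and 26 WT UMIs. Gadd45g, a stress-response gene, was at 132 and 373 CPM (1.50), and Ndufa4, a subunit of cytochrome c oxidase, at 67.1 and 185 CPM (1.47). In pericytes the ratios of these 10 genes ran from -0.05 for Tgm2 to 1.47 for Eln, below 1 for all but Eln. Among smooth muscle cells low in Rgs5 the ratios of Ndrg1, Tgm2, Net1 and Gadd45g were 1.38, 1.39, 0.96 and 0.71. With cells thinned to 2000 UMIs those of Adgrl1, Cd200 and Net1 were 2.40, 2.11 and 3.46.

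The genes named as lower in F592A were led by Actg2 and included lipid, annexin and matrix genes. Fabp5, a fatty acid binding protein, was detected in 28 of 35 and 31 of 73 cells, at 503 and 67.6 CPM, a log2 ratio of -2.90 (interval -3.31 to -2.50). Anxa1, an annexin that resolves inflammation, was at 1606 CPM (interval 1487 to 1733) and 329 CPM (interval 295 to 366), a ratio of -2.29 (interval -2.48 to -2.10). Anxa1 ran from 0 to 78.2 per 10000 in WT cells (median 11.3) and from 0 to 15.1 in F592A cells (median 2.31), and 33 of 35 and 67 of 73 cells had it. S100a10, a calcium-binding-family protein that pairs with annexin A2, was at 422 and 113 CPM (-1.90, interval -2.25 to -1.56). Thy1, a surface protein of stromal cells, was at 309 and 73.4 CPM (-2.07, interval -2.50 to -1.65). The imprinted noncoding RNAs Meg3 and Rian, from the same cluster on chromosome 12, were at 1211 and 291 CPM (-2.06) and 170 and 49.3 CPM (-1.79). In pericytes Meg3 and Rian had ratios of -0.03 and 0.14. Mgp, matrix Gla protein, an inhibitor of vessel calcification, was at 5135 and 1522 CPM (-1.75, interval -1.85 to -1.66). A single WT cell held 34% of Mgp, and the ratio was -1.22 among cells with less than 1% collagen UMIs. Loxl2, a lysyl oxidase that crosslinks collagen, had a ratio of -2.28, and Col5a3, a fibrillar collagen chain, one of -2.21. Among cells low in Rgs5 the ratios of Fabp5, Meg3 and Col5a3 were -3.58, -3.46 and -4.19. Col5a3 was at -1.44 among cells with at least 10 Myh11 UMIs, and with cells thinned to 2000 UMIs Loxl2 and Rian were at -4.31 and -0.89.

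**Figure D4:**
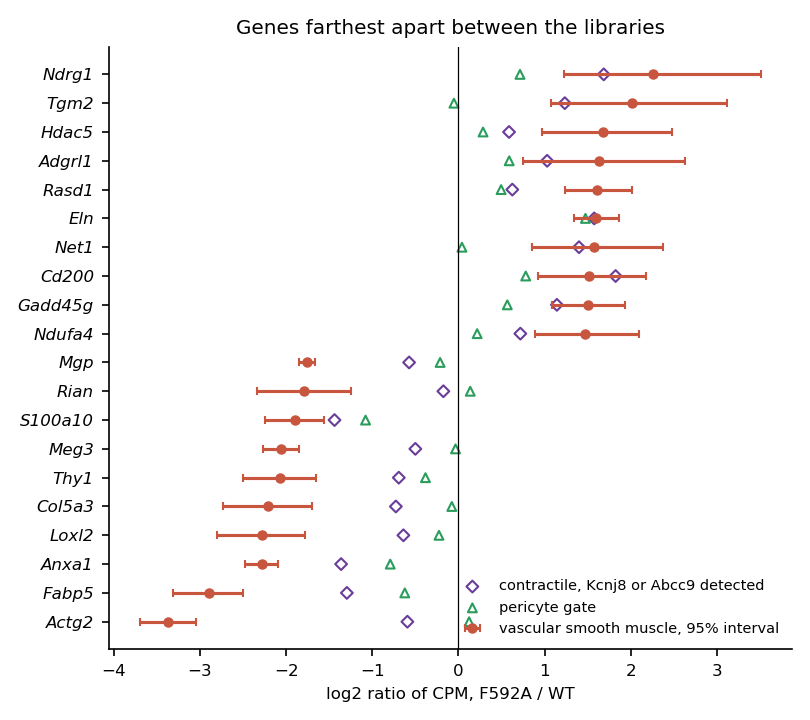
Log2 ratio of CPM, F592A to WT, for the 10 highest and 10 lowest named genes in smooth muscle cells with 95% counting intervals, beside the ratios of the same genes in contractile cells with Kcnj8 or Abcc9 (diamonds) and in pericytes (triangles). Eln has nearly the same ratio in all gates, while Actg2, Meg3 and Col5a3 are close to 0 in pericytes. The gates shown as diamonds and triangles can share cells.

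Collagens were lower in F592A smooth muscle cells across the list. All 10 measured fibrillar and associated collagen genes were lower in F592A by 1.5-fold or more and 0 were higher. Of all measured genes 16.9% were lower and 10.5% higher by that fold. The median log2 ratio of the collagens was -1.35. Col1a1, Col1a2 and Col3a1 are among the 10 and are capped by the rule. Of the rest, Col6a3, a chain of the microfibrillar collagen VI, was at 640.1 and 246 CPM (-1.38), Col5a2 at 360 and 122 CPM (-1.56), and Col12a1 at 173 and 65.7 CPM (-1.39). The median was -0.29 for the same genes in pericytes and -0.53 in contractile cells with Kcnj8 or Abcc9. Without the highest cell of each library per gene it was -1.29, with TMM factors -1.19, thinned to 2000 UMIs -0.96 and among cells low in Rgs5 -1.84. Against pericytes, which carry the same cap on Col1a1, Col1a2 and Col3a1, 7 of 8 other collagen genes compared were at least 2-fold lower in both libraries, beside 5.76% of all genes. Both gates used measured genes of these cells, so this is a description. Fibroblast markers differed in the same direction: 5 of 5 measured were at least 1.5-fold lower in F592A, among them Postn (326 and 87.9 CPM) and the tenocyte gene Tnmd (199 and 29.9 CPM, 46% of the WT UMIs in a single cell). Col1a1 and Col1a2, capped by the rule, are also among the 5. The median of these 5 was -1.27, and -0.37 without the highest cell of each library per gene. The median collagen share of a cell was 0.227% and 0.164%, against 0.106% and 0.0816% in leukocytes at median depths of 11036 and 13735 UMIs. The part of free or fibroblast RNA in these values was not tested.

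Basement membrane and elastic fibre genes divided. Of 19 measured, 3 were higher and 7 lower by 1.5-fold or more, beside 10.5% and 16.9% of all measured genes. The median log2 ratio was -0.30. The higher ones were Eln, Emilin1, which binds elastic fibres (43.2 and 104 CPM, 1.27, interval 0.55 to 2.08), and Lama5, a laminin chain of mature vessel walls (120 and 275 CPM, 1.20, interval 0.76 to 1.66). Lama5 was detected in 25 of 35 and 70 of 73 cells. Lower were Nid1, which links laminin to collagen IV (292 and 138 CPM, -1.08), Fbn1, the fibrillin of microfibrils (199 and 92.7 CPM, -1.10), Col4a1 (1889 and 1222 CPM, -0.63), Col18a1, Lama4, Loxl2 and Mgp. In pericytes the list had a median of -0.03.

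Genes of the synthetic and inflammatory state were mostly lower in F592A. Of 18 measured, 10 were lower and 3 higher by 1.5-fold or more, beside 16.9% and 10.5% of all measured genes. The median was -0.65 (-0.48 with TMM factors, -0.50 without cells over 20000 UMIs, -0.18 with cells thinned to 2000 UMIs). Without the highest cell of each library per gene it was -0.37. Vimentin (Vim), the intermediate filament of mesenchymal cells, was at 8489 and 4374 CPM (-0.96, interval -1.02 to -0.89) and had nearly the same ratio in pericytes (-0.86). Cd44, a hyaluronan receptor, was at 225 and 100.5 CPM (-1.17). The monocyte attractant Ccl2 was at 604 and 55.1 CPM (-3.46), but 40% of its WT UMIs were in a single cell, and pericytes had 3309 and 1693 CPM. Tnc, tenascin C, rested on a single WT cell for 61% of its UMIs, and without the highest cells its ratio was -0.48. The higher genes included Klf4, a factor linked to smooth muscle phenotype switching (240 and 409 CPM, 0.77, interval 0.45 to 1.10) and the cytokine Il6 (436 and 663 CPM, 0.60, interval 0.36 to 0.85). Il6 was detected in 18 of 35 and 49 of 73 cells, from 0 to 28.9 and from 0 to 29.3 per 10000.

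More receptors and effectors of vessel tone were higher in F592A than lower. Of 15 measured genes of the vasoactive and nitric oxide list, 6 were at least 1.5-fold higher and 1 lower. Over all measured genes 10.5% were higher and 16.9% lower by that fold. The median of the list was 0.44 (0.12 with cells thinned to 2000 UMIs), against 0.29 in pericytes. Gucy1a1, a subunit of the nitric oxide receptor that makes cyclic GMP, was at 213 and 408 CPM (0.93, interval 0.60 to 1.28). The endothelin receptors Ednra and Ednrb were at 101 and 165 CPM (0.71) and 83.9 and 163 CPM (0.96). Pde3a, a phosphodiesterase (0.74), S1pr3, a sphingosine phosphate receptor (0.82), and P2rx1, the ATP-gated channel of smooth muscle (67.1 and 105 CPM, 0.65), were the others. The 1 lower gene was Rgs5, at 7672 CPM (interval 7408 to 7942) and 3985 CPM (interval 3865 to 4109), a ratio of -0.94, while in pericytes it was at 8368 and 8938 CPM (0.10).

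Rgs5 varied widely between the cells of each library. Its level ran from 0 to 288 per 10000 in WT (median 70.8) and from 0 to 208 in F592A (median 23.6). Cells above 50 per 10000 were 23 of 35 in WT and 24 of 73 in F592A, and cells at 0 were 2 and 10. Across cells, Rgs5 and Eln had a Pearson r of -0.30 in WT (n = 35) and -0.47 in F592A (n = 73), and Rgs5 and Ntrk3 of -0.28 and -0.48, on log2 of the level per 10000 plus 1. Rgs5 had 0.23 and 0.24 with the pericyte marker Higd1b and -0.23 and -0.27 with Myh11. With Actg2 it had 0.21 and 0.07, and with Il6 -0.04 and 0.02. For comparison Tagln and Acta2 had 0.72 and 0.75. The cells of a library share their depth and scaling, so these are descriptions. Other pericyte markers also differed, with Higd1b at 175 and 61.8 CPM (-1.50) and Vtn at 76.7 and 28.0 CPM (-1.45), while Cspg4, the NG2 proteoglycan, was higher at 115 and 211 CPM (0.87).

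Calcium handling and transcription factors of the contractile program showed single differences. Of 14 measured calcium and channel genes, 3 were at least 1.5-fold higher and 1 lower, beside 10.5% and 16.9% of all measured genes. Their median was 0.27 (-0.21 with cells thinned to 2000 UMIs). Among the higher ones, Atp2a2, the calcium pump of the reticulum, was at 432 and 677 CPM (0.65). Ano1, a calcium-gated chloride channel, had a ratio of 0.75, and the connexin Gjc1 one of -0.85 (242 and 134 CPM). Among 10 regulators of the contractile program, 4 were at least 1.5-fold higher and 1 lower, with a median of 0.21. Mef2c was at 328 and 579.5 CPM (0.82, interval 0.55 to 1.10) and Klf2, known from its response to blood flow, at 295 and 562 CPM (0.93, interval 0.65 to 1.22). Mef2d and Klf4 were the other 2, and Tead1, a factor of the Hippo pathway, was lower (-0.63).

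Neurotrophins, which are growth factors of nerve cells, and their receptors were on a list of their own. Ntrk2 (TrkB, which binds brain-derived neurotrophic factor) was at 168 CPM (interval 131 to 212) and 224 CPM (interval 196 to 255), a ratio of 0.42 (interval 0.03 to 0.82). With cells thinned to 5000 UMIs it was found in 17 of 34 WT and 36 of 72 F592A cells (50% in each), against 23.7% and 29.1% of pericytes and 0.636% and 0.862% of leukocytes. Ntrk3 (TrkC, the receptor for neurotrophin-3) had 14 and 43 UMIs, or 33.6 and 41.5 CPM, a ratio of 0.31 with an interval from -0.59 to 1.29. Pericytes had 1.36 and 8.51 CPM of Ntrk3, and contractile cells with Kcnj8 or Abcc9 had 9.45 and 55.0 CPM. Bdnf had 14 and 85 UMIs, or 33.6 and 82.1 CPM (1.29, interval 0.47 to 2.22), and Ntf3 had 1 and 14 UMIs. Ntrk3, Bdnf and Ntf3 did not reach the 100 UMIs needed to be measured. Thinned to 5000 UMIs, 14.7% (4.95 to 31.1) of WT and 25% (15.5 to 36.6) of F592A cells had Bdnf, and these intervals overlap. Sort1, a sorting receptor for neurotrophin precursors, was at 91.1 and 145 CPM (0.67, interval 0.15 to 1.22). Ngfr, the low-affinity receptor, had 6 UMIs in each library and was at 14.4 and 5.80 CPM, below 39.6 and 48.4 CPM in pericytes. Of the 21 genes on the list 14 were detected and 3 measured. On the axon guidance list 5 genes were measured, with Epha4 at 47.9 and 115 CPM (1.26) and Plxnd1 at 55.1 and 106 CPM (0.95) at least 1.5-fold higher and 0 lower. Over all measured genes 10.5% were higher and 16.9% lower by that fold.

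Growth factor and stress lists stand beside all measured genes, of which 10.5% were at least 1.5-fold higher and 16.9% lower. Of 10 measured PDGF, FGF, IGF and VEGF genes, 3 were at least 1.5-fold higher and 0 lower, namely Fgf1 (52.7 and 114 CPM, 1.11), Fgfr1 (0.79) and Igfbp5, an IGF-binding protein (1098 and 2154 CPM, 0.97, interval 0.83 to 1.12). In pericytes Igfbp5 had a ratio of 1.38. Of 17 TGF-beta and BMP genes 1 was at least 1.5-fold higher and 4 lower, with a median of 0.01. Ccn2 (connective tissue growth factor) was at 165 and 38.6 CPM (-2.10, interval -2.70 to -1.52), while in pericytes it was at 48.0 and 46.7 CPM. The metallothioneins Mt1 and Mt2, which bind zinc, were at 611 and 1674 CPM (1.45, interval 1.26 to 1.65) and 149 and 322 CPM (1.11), with pericyte ratios of 0.97 and 0.80. The chaperone list had 16 measured genes, 3 higher and 3 lower, and its median of -0.11 was that of all genes to 2 decimals. Immediate early genes, which dissociation can induce, had 4 of 25 at least 1.5-fold higher and 0 lower with a median of 0.31, led by Klf2, Zfp36 (0.92) and Nr4a2 (0.83). The part of dissociation was not tested.

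**Figure D5:**
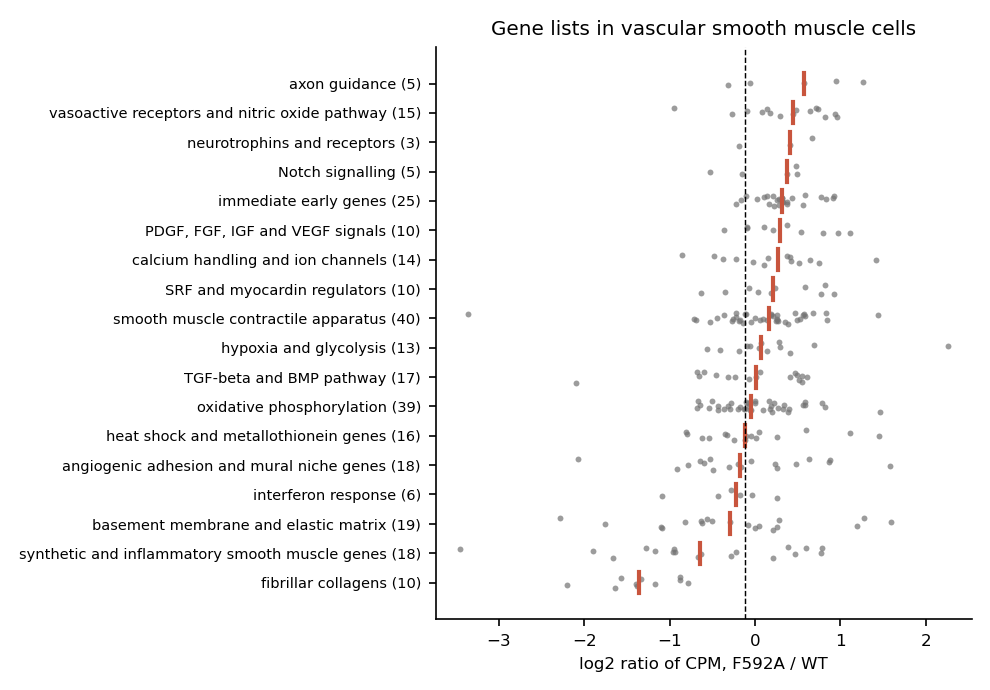
Log2 ratio of CPM, F592A to WT, for each measured gene of the lists with at least 3 measured genes (points; number in brackets), with the median of the list (red bar) and of all measured genes (dashed line, -0.11). Fibrillar collagens lie lowest, at a median of -1.35, followed by synthetic and inflammatory genes at -0.65.

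The remaining lists stand beside the same 10.5% higher and 16.9% lower of all measured genes. Of 39 oxidative phosphorylation genes 5 were at least 1.5-fold higher and 3 lower (median -0.04, and 0.12 with TMM factors). Of 13 hypoxia and glycolysis genes 2 were higher and 0 lower (median 0.07). Notch signalling had 5 measured genes with 0 at least 1.5-fold apart in either direction, and a median of 0.38 against -0.11 for all genes (-0.06 with cells thinned to 2000 UMIs). Of 18 adhesion and mural niche genes 4 were higher and 5 lower (median -0.18), among them Gas6, a ligand of Axl (28.8 and 86.0 CPM, 1.58), and Sparc (4481 and 2372 CPM, -0.92). Of 6 interferon genes 0 were higher and 1, Ifi27, was lower (-1.08).

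Cell cycle RNA summed to less in smooth muscle cells than in pericytes, and no direction between libraries could be read from it. The 40 genes of the list summed to 254 and 276 CPM, against 1639 and 990 CPM in pericytes, and 0 of them reached the minimum to be measured. With cells thinned to 2000 UMIs, at least 2 such UMIs were found in 8.57% of WT cells (3 of 35, 1.80 to 23.1) and in 24.7% of F592A cells (18 of 73, 15.3 to 36.1), a ratio of 2.88 (interval 0.907 to 9.12). With cells thinned to 5000 UMIs the shares were 50% and 36.1%, a ratio of 0.722 (interval 0.458 to 1.14), and without thinning they were 74.3% and 80.8%. Leukocytes had 24.0% and 21.2% at 2000 UMIs. Pericytes had 29.0% and 18.9%, so the F592A share of smooth muscle cells was not below theirs, unlike the summed level.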

How the data were processed

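Cells of the injured tendon area were profiled with 10x Genomics droplets, 1 library per genotype. The deposited files hold raw UMI counts for 32285 features. Per the file headers the authors' software was Cell Ranger 6.0.1. The submitters' processing notes list Seurat, mm10 and Cell Ranger 2.1.1 instead, and the sources read here do not settle which was used.

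Barcodes with at least 1000 UMIs, at least 500 genes, at most 15% mitochondrial UMIs and no match in the other library were kept. Gates other than smooth muscle used the same filters. UMIs were summed per gate and library as CPM with exact Poisson intervals. Log2 ratios carry exact conditional binomial intervals. They were checked on summed counts simulated with counting error alone, so the check does not cover spread between cells. Intervals are at 95%. With 1 library per group there is no test. Measured genes had 100 or more UMIs in the libraries together. Named genes were the 10 highest and 10 lowest ratios among genes that differed by 2-fold or more and reached 20 CPM in the higher library. For the comparison with pericytes they were the 10 on each side ranked by the smaller ratio of the 2 libraries, with at least 100 CPM. Mitochondrial, ribosomal, haemoglobin, immunoglobulin, sex-linked and unnamed genes were left out, as were genes below 1/4 of their level in another gate. The pericyte gate counted among these, so genes far below pericytes could not be named. The cells, the 19 gene lists and the 8 marker lists were chosen with earlier results of these data known. Doublets called by Scrublet (in scanpy 1.11.5) were left out only as an alternative. No reads were used here. Results for some genes on the lists are not reported here.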

Additional observations from a re-analysis of the deposited data

How the results depend on the processing

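No paired analysis was possible because each group is 1 library. The share ratio of 2.80 kept its direction under every alternative gate tried, but each of these gates kept a limit on Myh11. Leaving that limit aside, 84 WT and 78 F592A cells met the other criteria. With Rgs5 under 50 per 10000 the share ratio was 5.48, but that limit removes a larger part of the WT cells, since Rgs5 was lower in F592A. The number of genes at least 2-fold higher, 50, became 95 with up to 1 UMI of Kcnj8 and Abcc9, 85 with TMM factors, 12 with cells thinned to 2000 UMIs and 324 with no minimum of UMIs per gene. The number at least 2-fold lower, 85, became 142, 49, 15 and 556 under the same settings, and 53 with median-of-ratios factors. The genes compared were 1967 in the main setting, 2872 with up to 1 UMI of Kcnj8 and Abcc9, 282 with thinning and 5755 with no minimum. The cycling ratio of 2.88 became 0.722 with cells thinned to 5000 UMIs. With at least 3 UMIs it has no value, since 0 of 35 WT cells passed. Of 300 values of the 20 named genes under alternatives, 267 stayed within the counting interval, 33 moved beyond it and 0 changed sign. Keeping shared barcodes or leaving out Scrublet calls changed no cell of the gate, so the 20 values of each could not move. The scaling factors shifted every ratio by the same amount. The 20 genes were picked as the extremes of these same cells, so their kept signs are no support for the differences. The 10 moves among cells low in Rgs5 came with 12 WT cells. The limits on Rgs5, on 20000 UMIs and on the highest cell were chosen after seeing the data. The cause of these moves was not tested. Precision is limited by the 35 WT cells, their 417126 UMIs and the 1 library per group.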
